A study of Mus musculus with 9 samples.

Results

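Open chromatin was compared between a mouse embryonic stem cell line that carries a TetR-MYBTA construct and its matched line that carries TetR. Both lines are E14 cells of the TOT2N variant, and each holds its construct as a stable integration. The unmodified E14 TOT2N line (WT) served as a reference. The assay was ATAC-seq: a transposase cuts and tags DNA wherever it can reach it, so that a peak of reads marks an open stretch. It averages over many cells, so fewer cells with an open site and less opening in each cell cannot be told apart. Each line had 3 libraries, so the comparison rests on 6 of the 9 libraries of the series. The labels do not say whether libraries of a line came from separate cultures, or whether a line is 1 clone, so p-values here reflect only how libraries vary, possibly for technical reasons. With 3 against 3 libraries an exact permutation test cannot go below p = 0.1.

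TetR is the bacterial tetracycline repressor, which binds its operator sequence and, when fused to another protein domain, carries that domain to DNA. MYB, a transcription factor known from blood progenitors, recruits coactivators of the p300 and CBP kind through its activation domain. The labels do not spell out the MYBTA part of the construct. Embryonic stem cells are held in their state by transcription factors such as OCT4 (gene Pou5f1), SOX2, NANOG, KLF4 and ESRRB, whose genes are surrounded by enhancers that are open in this cell type.

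Overlapping peaks of the 6 libraries were joined into 102267 regions on the 19 autosomes. A region was called where all 3 libraries of one line had a peak and no library of the other line did. There were 1599 regions of TetR-MYBTA only, 1.56% of all, and 4780 of TetR only, 4.67% of all. A further 27516 regions had a peak in every one of the 6 libraries. The called regions are the members described here, and the calling rule itself is no test of a difference.

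The regions of TetR-MYBTA only lay mainly between genes (67.3%), and chromosomes 1 and 11 held 338 and 217 of the 1599. The regions of TetR only lay inside genes in 51.0% of cases and included the promoter of Nanog, a second region at Nanog, a region inside Pou5f1 and a region beside the Mir290 microRNA cluster. As a class, regions near naive and core pluripotency genes were of TetR only in 4.36% of cases, against 4.67% over all regions. With all lists cut to equal length the shares were 4.73% (15 of 317) and 3.56%. These sites are therefore described as single examples, with no surplus of their class in the lists as deposited. The sequences of these sites are given first, because the calls at promoters turn on where in the promoter the peak lay.

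Promoters were taken as the 250 bases before to the 50 bases after a gene start, with sequence and positions from RefSeq on GRCm38.p6, the assembly that mm10 names. Of 9157 genes with any region in this window, 31 had one of TetR-MYBTA only (0.339%) and 186 had one of TetR only (2.03%). Leaving out 1 library in turn gave 53 to 72 and 253 to 349 genes, and lists of equal length gave 47 and 152. The 250 bases before the start are shown 5′ to 3′ along the gene, with the part covered by the called region in capitals. Nanog is shown because its promoter held a peak in the 3 TetR libraries and none within 1 kb in TetR-MYBTA, Ptms and Trh because they followed it among promoters with no TetR-MYBTA peak within 1 kb, and Zfp951, Cox7b2 and Trpv3 because they led the opposite direction under the same condition. These sets were chosen after their values were seen. Nanog encodes a homeobox factor of pluripotency, Ptms the small acidic protein parathymosin, Trh the precursor of thyrotropin-releasing hormone, Zfp951 a zinc finger protein, Cox7b2 a subunit of cytochrome c oxidase and Trpv3 a heat-gated cation channel.
Nanog, TetR only, chr6:122707239-122707488, plus strand: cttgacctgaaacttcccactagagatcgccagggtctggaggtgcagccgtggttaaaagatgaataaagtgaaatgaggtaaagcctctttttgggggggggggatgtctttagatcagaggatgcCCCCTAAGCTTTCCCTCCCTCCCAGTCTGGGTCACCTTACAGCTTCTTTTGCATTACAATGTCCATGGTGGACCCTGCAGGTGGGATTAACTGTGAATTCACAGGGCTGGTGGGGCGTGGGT
Ptms, TetR only, chr6:124917947-124918196, minus strand: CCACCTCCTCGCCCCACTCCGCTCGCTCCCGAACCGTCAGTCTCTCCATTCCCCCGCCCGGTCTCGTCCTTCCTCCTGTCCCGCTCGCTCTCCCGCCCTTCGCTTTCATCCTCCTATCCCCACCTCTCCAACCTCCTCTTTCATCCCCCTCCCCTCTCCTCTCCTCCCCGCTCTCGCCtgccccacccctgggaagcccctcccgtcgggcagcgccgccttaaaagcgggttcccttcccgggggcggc
Trh, TetR only, chr6:92244651-92244900, minus strand: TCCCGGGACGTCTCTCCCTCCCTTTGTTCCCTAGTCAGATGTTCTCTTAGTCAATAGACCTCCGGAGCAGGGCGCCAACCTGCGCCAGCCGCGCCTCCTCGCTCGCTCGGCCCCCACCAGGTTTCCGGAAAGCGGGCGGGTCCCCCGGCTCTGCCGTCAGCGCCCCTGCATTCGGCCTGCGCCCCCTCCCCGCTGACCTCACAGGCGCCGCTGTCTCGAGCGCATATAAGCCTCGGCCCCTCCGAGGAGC
Zfp951, TetR-MYBTA only, chr5:104860069-104860318, minus strand: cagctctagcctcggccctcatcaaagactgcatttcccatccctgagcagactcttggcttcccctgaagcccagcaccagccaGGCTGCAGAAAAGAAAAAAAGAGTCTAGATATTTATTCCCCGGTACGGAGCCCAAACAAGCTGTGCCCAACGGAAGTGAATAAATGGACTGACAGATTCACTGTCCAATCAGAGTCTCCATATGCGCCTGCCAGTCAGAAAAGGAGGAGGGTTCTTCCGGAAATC
Cox7b2, TetR-MYBTA only, chr5:71548206-71548455, minus strand: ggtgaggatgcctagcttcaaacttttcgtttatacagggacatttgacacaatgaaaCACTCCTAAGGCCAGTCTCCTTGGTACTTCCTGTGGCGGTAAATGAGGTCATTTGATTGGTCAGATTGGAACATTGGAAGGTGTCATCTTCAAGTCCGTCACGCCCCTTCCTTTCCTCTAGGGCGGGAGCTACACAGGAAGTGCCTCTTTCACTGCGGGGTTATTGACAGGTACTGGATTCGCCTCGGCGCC
Trpv3, TetR-MYBTA only, chr11:73267270-73267519, plus strand: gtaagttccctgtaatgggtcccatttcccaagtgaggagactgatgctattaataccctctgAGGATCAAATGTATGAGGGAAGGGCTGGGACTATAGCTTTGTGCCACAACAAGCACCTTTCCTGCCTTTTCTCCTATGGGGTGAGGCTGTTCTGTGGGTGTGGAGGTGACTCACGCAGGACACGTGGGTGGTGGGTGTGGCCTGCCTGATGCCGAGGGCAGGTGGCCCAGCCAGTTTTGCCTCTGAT

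The called Nanog region covered 122 of these 250 bases and reached past the gene start. Inside its capitals lies TTTGCAT, which on the other strand reads ATGCAAA, the core of the octamer that POU factors such as OCT4 bind. It begins 75 bases before the gene start. The capitals also hold 1 match to TAACNG, the MYB recognition core in its longer form, 35 bases before the start. Searching both strands of the 300-base windows, 3.46% of windows at promoters with any region held ATGCAAA, as did 2.99% of the windows with a region of TetR only. TAACNG, every match of which also contains the shorter core AACNG, was in 17.5% of windows with any region, 19.4% of those of TetR-MYBTA only and 18.9% of those of TetR only. The shorter core AACNG was in 76.6%, 86.1% and 79.1% of the same windows. GATA was in 40.8%, 41.7% and 40.3%. These shares moved with the setting. At equal list length ATGCAAA was in 6.79% of the windows of TetR only, against 3.49% of those with any region, and GATA was in 60% of the 15 windows of TetR-MYBTA only with no TetR peak within 1 kb. A match is a string of letters in the window and says nothing of whether a protein was bound there.

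At the shared promoter of Cpsf2 and Ndufb1 both lines had a peak, at different places. Cpsf2 encodes a subunit of the mRNA cleavage and polyadenylation complex, and Ndufb1, read in the opposite direction, a subunit of mitochondrial complex I. The same 250 bases before the Cpsf2 start are shown with the capitals of each line, because this is 1 of the promoters that the calling rule put into both directions.
Cpsf2, TetR only, chr12:101975724-101975973, plus strand: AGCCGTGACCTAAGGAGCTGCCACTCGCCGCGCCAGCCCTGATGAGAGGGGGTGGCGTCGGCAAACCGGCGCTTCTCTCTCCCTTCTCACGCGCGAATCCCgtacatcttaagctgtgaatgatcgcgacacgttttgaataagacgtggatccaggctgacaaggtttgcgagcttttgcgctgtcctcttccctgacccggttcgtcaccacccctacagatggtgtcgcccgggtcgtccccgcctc
Cpsf2, TetR-MYBTA only, chr12:101975724-101975973, plus strand: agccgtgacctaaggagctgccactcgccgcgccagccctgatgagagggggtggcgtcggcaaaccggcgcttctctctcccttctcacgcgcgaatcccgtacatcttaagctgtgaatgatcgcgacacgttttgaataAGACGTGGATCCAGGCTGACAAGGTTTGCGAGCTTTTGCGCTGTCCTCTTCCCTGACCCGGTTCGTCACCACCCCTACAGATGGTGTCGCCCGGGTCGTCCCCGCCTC

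There were 3 genes called in both directions in this way: Cpsf2, Ndufb1 and Synj1, which encodes a phosphoinositide phosphatase of synapses. Of the 31 genes of TetR-MYBTA only, 14 had no TetR peak within 1 kb of the region, and of the 186 of TetR only, 130 had no TetR-MYBTA peak within 1 kb. The 4 promoter regions of TetR-MYBTA only that stood highest in their lists, at Pou2f1 (an octamer-binding factor), Eps15l1 (an endocytosis adaptor), Slc43a2 (an amino acid transporter) and Cpsf2, all had a TetR peak within 1 kb. Of the first 4 of TetR only, at Cpsf2, Ndufb1, Nanog and Synj1, only the Nanog region had no peak of the other line within that distance. The promoters that remain differ in base composition from the average. Their median GC content was 49.0% for TetR-MYBTA only and 58.7% for TetR only, against 62.3% over all windows with a region, and the median number of CpG dinucleotides was 6 and 13, against 22.

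The Nanog locus held 5 regions within 10 kb. The promoter region, chr6:122707367-122707587, had no peak in any TetR-MYBTA library. In TetR replicates 1, 2 and 3 it stood at percentile 89.8, 85.9 and 88.9 of the peak list, where 100 is the first row of a library's list and rows follow the rank that the peak caller gave. WT had a peak there in replicate 3 alone, at percentile 89.0, so the 2 other WT libraries resembled TetR-MYBTA in lacking it. A second region of TetR only lay 1.22 kb beyond the other gene end, chr6:122715855-122716084, at percentile 70.6, 64.9 and 40.4 in TetR, and all 3 WT libraries had it. The region 4.67 kb outside the gene on the promoter side was at percentile 96.9 or higher in all 9 libraries, and a region 5.42 kb beyond the other end was also in all 9. The 2 lines thus shared the outer regions of the locus and differed at the gene start and just past its other end.

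Pou5f1, which encodes OCT4, held 1 region of TetR only, chr17:35509428-35509712, inside the gene. Its percentiles were 80.3, 75.9 and 76.8 in TetR, and 75.7, 74.1 and 74.8 in WT. No TetR-MYBTA library had a peak there, so here TetR-MYBTA stood apart from both other lines. The Pou5f1 region 1.89 kb outside the gene, at chr17:35503910-35504147, was present in all 9 libraries, at percentile 84.9, 91.4 and 80.6 in TetR-MYBTA and 80.7, 80.2 and 83.4 in TetR. Sox2 kept its region over the gene start in all 6 libraries, at percentile 81.7 to 84.9 in TetR-MYBTA and 82.0 to 86.0 in TetR, and no region at Sox2, Klf4 or Esrrb was called in either direction. At Myb, 2 regions were in all 6 libraries and another was in 2 TetR libraries and no TetR-MYBTA library, which the rule does not call.

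The Mir290 cluster on chromosome 7 produces some of the most abundant microRNAs of mouse embryonic stem cells, which speed the cell cycle and repress differentiation genes. A region of TetR only, chr7:3221647-3221862, lay 0.806 kb from the nearest hairpin. Its percentiles in TetR were 88.1, 89.2 and 88.4, and neither TetR-MYBTA nor WT had a peak there. On the other side of the cluster, 0.77 kb outside it, a region was present in all 3 WT libraries, in TetR replicate 3 alone and in no TetR-MYBTA library. The 4 mature sequences below are shown because they carry the seeds that the cluster is known for. Bases 2 to 8, the seed by which a microRNA finds its targets, are in capitals, and sequences are from RefSeq on GRCm38.p6.
mmu-miR-290a-3p: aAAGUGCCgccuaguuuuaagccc
mmu-miR-291a-3p: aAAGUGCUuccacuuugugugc
mmu-miR-294-3p: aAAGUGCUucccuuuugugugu
mmu-miR-295-3p: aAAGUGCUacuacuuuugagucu

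The seed AAGUGCU was shared by 3 of them, miR-291a-3p, miR-294-3p and miR-295-3p, while miR-290a-3p has AAGUGCC. Called regions within 2 kb of any autosomal microRNA hairpin were 17 of TetR only, 0.356% of that set, and 2 of TetR-MYBTA only, 0.125%. Over all regions the share was 0.345%, so the regions of TetR only were near hairpins about as often as regions in general. Another of these, chosen after its values were seen, lay 0.328 kb from the hairpins of Mir23a, Mir27a and Mir24-2. It was at or above percentile 45.6 in TetR and absent from WT.

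**Figure D1:**
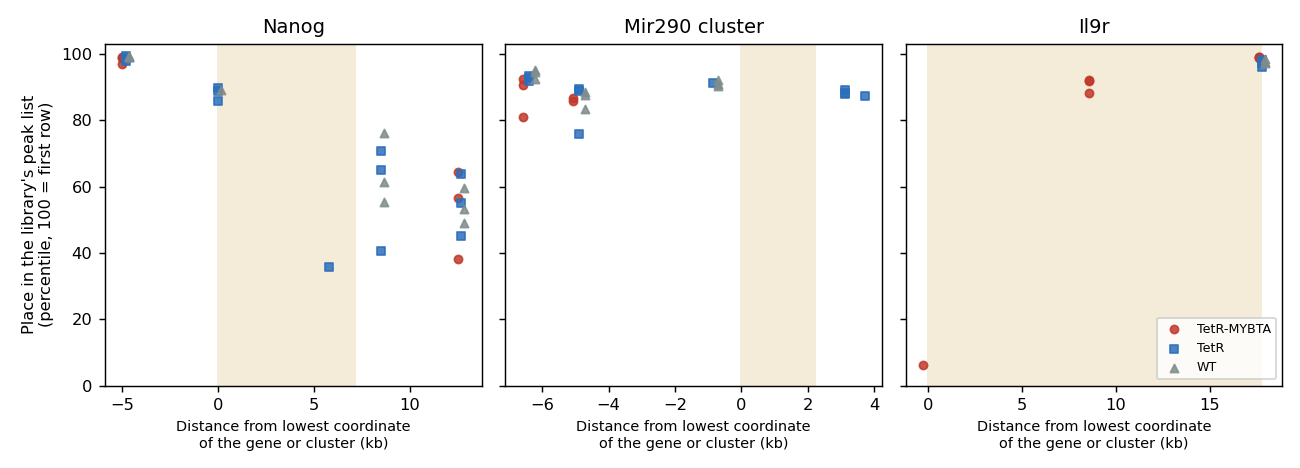
Place of each library's peak in its own list (percentile, 100 is the first row) against distance in kb from the lowest coordinate of Nanog, the Mir290 cluster and Il9r, with the gene or cluster shaded. Circles are TetR-MYBTA, squares TetR and triangles WT libraries, nudged sideways so that they do not hide each other. Squares without circles stand at the Nanog start and past the Mir290 cluster, and circles alone stand inside Il9r.

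Among the regions of TetR-MYBTA only with no TetR peak within 1 kb, the highest-placed lay between genes, 82.7 kb from Itgb1, the gene of integrin beta 1. At chr8:128602708-128602937, its percentiles were 94.5, 95.3 and 93.5 in the 3 TetR-MYBTA libraries, and WT had none. The region inside Il9r, the interleukin-9 receptor gene of blood cells, chr11:32196169-32196430, stood at 91.8, 92.2 and 88.4, also with no WT peak. A region between genes, 25.3 kb from Rc3h1, which encodes the RNA-binding protein roquin, was at 95.4, 91.1 and 90.8 and absent from WT. It was no longer called without TetR-MYBTA replicate 1. Of the 12 highest, 8 lay between genes in the sense used here, more than 1 kb from any protein-coding gene, and 5 were on chromosome 1. WT had a peak in all 3 libraries at 4 of the 12, among them a region inside Slc26a9, an anion transporter gene, and none at 5, those near Itgb1, Rc3h1 and Nup160 and those inside Il9r and Tmem178. Nup160, 15.5 kb from its region, encodes a nuclear pore protein and Tmem178 a membrane protein. The remaining regions of the 12 were inside 4930558K02Rik or between genes, where the nearest gene only gives a name. These were Gm51582 (134 kb away), 2310009B15Rik (2.52 kb), St8sia4 (a polysialyltransferase, 32.2 kb), Chordc1 (a chaperone partner, 736 kb) and Cmc2 (a mitochondrial protein, 36.1 kb). The percentiles of these remaining regions ran from 82.9 to 94.5 in TetR-MYBTA.

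The highest of TetR only was at a gene end of Jam2, a junctional adhesion molecule gene, chr16:84774196-84774428, with percentiles 96.4, 95.1 and 97.2 in TetR and no WT peak. Next came a region inside Tle1, the gene of a Groucho corepressor, at 90.6, 91.9 and 91.0, then the region past the Mir290 cluster, which RefSeq places inside Nlrp12, an innate immune sensor gene. Regions inside Gata3 (a trophoblast and T-cell factor) at 92.8, 88.3 and 87.9, inside Schip1 (a cytoskeletal protein) at 92.2, 88.2 and 86.9, and inside Jag1 (a Notch ligand) at 92.2, 88.2 and 86.3 were also absent from WT. The other regions of the 12 were near Ipmk, an inositol phosphate kinase gene, and Trim7, a ubiquitin ligase gene, both absent from WT, inside Cop1 (a ubiquitin ligase), Uck2 (a uridine kinase) and Klhl42 (a ubiquitin ligase adaptor), each present in all 3 WT libraries, and at the Nanog start. Of these 12, 8 lay inside genes, against 4 of the 12 of TetR-MYBTA only.

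Most called regions stood far lower. The lowest of a region's 3 percentiles had a median of 22.5 for TetR-MYBTA only and 21.3 for TetR only, against 53.1 for the regions in all 6 libraries. In the upper 50% of all 3 lists stood 211 regions of TetR-MYBTA only (13.2%) and 594 of TetR only (12.4%), and above percentile 80 in all 3 lists 24 and 52. Among regions above percentile 80 in a library, at most 5.19% had no peak in at least 1 other library of the same line. By count these were 373 to 638 regions per library, more than the 24 and 52. Of them, 118 to 207 per library had no peak in either other library of the line.

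The balance between the 2 directions depended on list length. TetR-MYBTA libraries had 57934, 55257 and 43871 autosomal peaks and TetR libraries 67652, 63529 and 56522. The means, 52354 ± 7467 and 62568 ± 5627 (SD, n = 3 each), had p = 0.2 by a two-sided exact permutation test, and the ranges overlapped. Tags per library, from 16.4 M to 20.1 M, followed the order of the list lengths within TetR but not within TetR-MYBTA. TetR-MYBTA replicate 3 had the fewest peaks from 19.8 M tags. Of these tags 5.48% lay in peaks, against 7.44% and 7.57% in the other libraries of its line and 9.30% to 9.78% in TetR. Its peaks were called at a threshold of 12 tags, against 11 in every other library of the 2 lines. The caller also drops peaks that do not stand out from their 10 kb surroundings, and it dropped 8.65% to 10.4% of putative peaks in TetR-MYBTA and 9.91% to 13.1% in TetR. The part of these differences in the called regions was not tested.

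With every autosomal list cut to its first 43871 rows, 74363 regions remained, of which 2710 were of TetR-MYBTA only (3.64%) and 2646 of TetR only (3.56%). Outside the stretches of chromosomes 1 and 11 described below the numbers at this length were 2073 (3.06%) and 2572 (3.79%) of 67776 regions. Of the original 1599 regions of TetR-MYBTA only, 1052 (65.8%) were called again, and of the 4780 of TetR only, 1742 (36.4%). The cut only removes peaks, and on average it took more rows from the TetR lists. These 2 shares therefore do not compare how firm the calls of each direction were. Leaving out TetR-MYBTA replicate 3, the shortest list, gave 3642 and 5465. Taking instead the upper 50% of each list, which leaves the lists unequal, gave 1173 (2.44%) and 2841 (5.91%). Requiring that no peak of the other line lay within 1 kb left 1419 (1.39%) and 4192 (4.1%). All 12 highest regions named above in each direction were still called at equal length. This is no test, since each stood above percentile 80 in every library of its line. The cut removed only later rows and could add no peak to the other line.

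**Figure D2:**
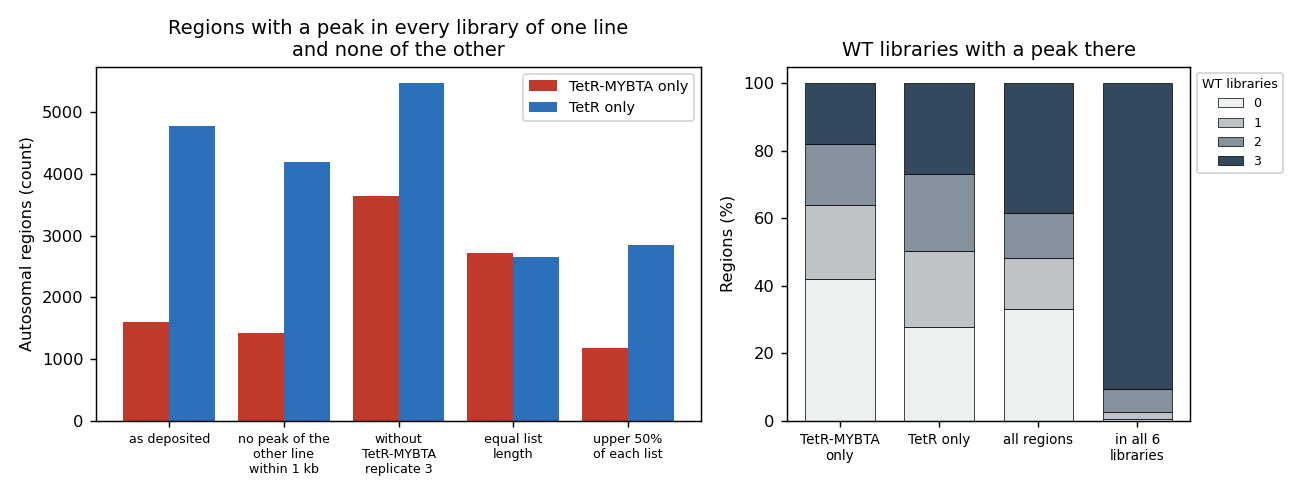
Left, the number of autosomal regions called in each direction as deposited, with no peak of the other line within 1 kb, without TetR-MYBTA replicate 3, at equal list length and for the upper 50%. Right, the share of regions (%) with a peak in 0, 1, 2 or 3 WT libraries. The counts are 1599 and 4780 as deposited and 2710 and 2646 at equal length.

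The WT libraries were used to see which of the 2 lines departed from unmodified cells. Of the 1599 regions of TetR-MYBTA only, 670 (41.9%) had no peak in any WT library and 285 (17.8%) had one in all 3. For TetR only the numbers were 1334 (27.9%) and 1288 (26.9%). Over all 102267 regions the shares were 33.0% and 38.4%. So 1288 regions were lacking from TetR-MYBTA while present in both other lines, the class of the Pou5f1 region, and 1334 were present in TetR alone, the class of Gata3, Jag1 and the Mir290 region. The 670 regions found in TetR-MYBTA alone were the farthest from genes, 38.5% of them over 100 kb away, against 21.4% of the 285 shared with WT. Of the 670, 219 (32.7%) lay in the stretches of chromosomes 1 and 11 described below, against 48 (16.8%) of the 285. Their median lowest percentile was 17.2, and that of the 1334 regions of TetR alone was 16.4.

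Position relative to genes set the directions apart. Of the regions of TetR-MYBTA only, 27.8% lay inside a protein-coding gene and 67.3% between genes. Of those of TetR only, 51.0% lay inside genes and 38.9% between them, and over all regions the shares were 38.0% and 44.9%. Regions over 100 kb from any protein-coding gene were 32.7% of TetR-MYBTA only, 10.1% of TetR only and 15.9% of all. Gene ends, within 1 kb of either end of a gene, held 4.88% and 10.2% of the called regions, both below the 17.1% of all regions and the 28.6% of regions found in all 6 libraries.

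The same contrast was present in the whole lists. Inside genes lay 33.7%, 33.6% and 32.3% of the peaks in the TetR-MYBTA libraries and 38.6%, 38.3% and 37.6% in the TetR libraries. WT was between them, at 36.3%, 37.0% and 36.6%. The ranges did not overlap, and the difference of means, -4.96 percentage points, had the smallest p that the design allows (p = 0.1, two-sided exact permutation test, adjusted p = 0.15 over 3 position classes). Between genes lay 46.0%, 46.2% and 43.9% in TetR-MYBTA and 41.9%, 41.2% and 40.4% in TetR, again without overlap (exact permutation p = 0.1, adjusted p = 0.15). Over 100 kb from genes, a measure added after the data were seen, lay 17.0%, 17.1% and 15.6% in TetR-MYBTA and 13.3%, 12.7% and 12.3% in TetR (exact permutation p = 0.1), with WT at 12.3%, 12.9% and 12.6%. In this last class TetR-MYBTA stood apart from both other lines. The share at gene ends, 21.4% ± 2.06 and 20.7% ± 1.25 (SD, n = 3 each), overlapped (exact permutation p = 0.7), and at equal list length it turned to a TetR excess without overlap.

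**Figure D3:**
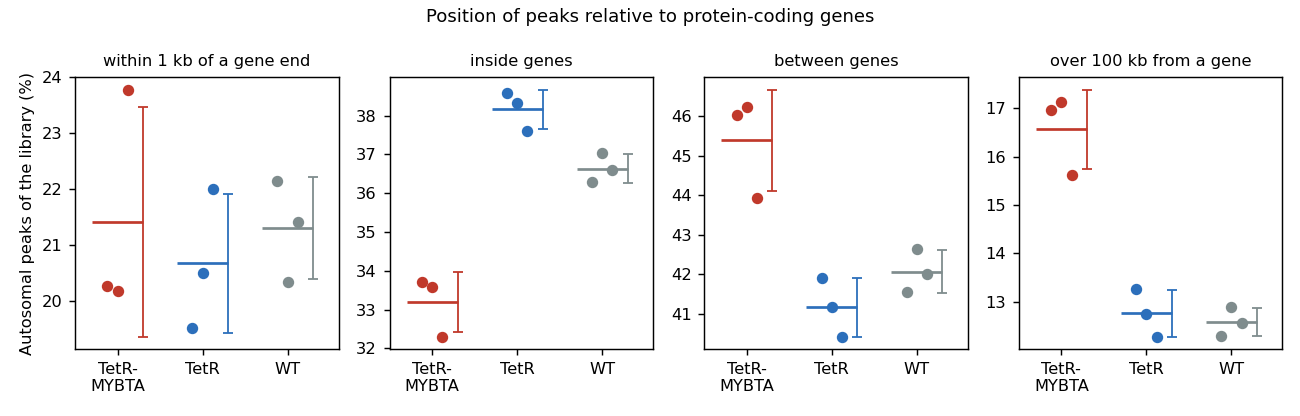
Share of each library's autosomal peaks (%) within 1 kb of a gene end, inside genes, between genes and over 100 kb from a gene, for the 3 lines. Points are libraries, lines are means and bars 1 SD, and axes do not start at 0. TetR-MYBTA points lie below the others inside genes and above them in the 2 classes on the right.

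The genome was not evenly used. Chromosome 1 held 338 of the 1599 regions of TetR-MYBTA only, 3.58% of its own regions, and chromosome 11 held 217, 3.26%, both above the 1.56% over all autosomes. In the opposite direction they had the lowest shares, 2.42% and 2.02% against 4.67% overall. The excess was strongest on chromosome 1 from 88 Mb on, with 290 of 6322 regions (4.59%), and on chromosome 11 below 44 Mb, with 113 of 2199 (5.14%). Both stretches were known from earlier results of these data. Outside them 1196 regions of TetR-MYBTA only remained (1.28%), and their shares inside and between genes were 29.7% and 65.1%, close to those of the whole set. Chromosome 19 leaned the other way, with 12 regions of TetR-MYBTA only (0.495%) and 197 of TetR only (8.12%). On chromosome 6 from 68 to 84 Mb, a stretch likewise known beforehand, none of 535 regions was of TetR-MYBTA only and 81 (15.1%) were of TetR only. Of these 81, 43 had no peak in any WT library and 5 had one in all 3.

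Whole lists showed the same tilt. Chromosome 1 carried 10.4%, 10.6% and 10.4% of the peaks in TetR-MYBTA, and 7.84%, 7.83% and 7.78% in TetR. Chromosome 11 carried 7.48%, 7.41% and 7.78%, and 5.75%, 5.75% and 5.75%. Chromosome 19 carried 1.94%, 1.97% and 1.94%, and 2.59%, 2.61% and 2.61%. WT was near TetR on all 3, with 7.81% to 7.88%, 5.98% to 6.14% and 2.45% to 2.52%. Chromosome 6 carried 5.74%, 5.68% and 5.63% in TetR-MYBTA, and 6.25%, 6.22% and 6.29% in TetR. There WT, with 5.77% to 5.83%, was nearer TetR-MYBTA. Of the 19 autosomes, 3 (15.8%), chromosomes 1, 3 and 11, had every TetR-MYBTA library above every TetR library, and 12 (63.2%) had every TetR-MYBTA library below. Each of these reached the smallest p of the design, p = 0.1 by exact permutation (adjusted p = 0.127 over 19 autosomes). Shares of 1 list sum to a whole, so the autosomes are not independent of each other. How much of the lower shares goes with the larger ones on chromosomes 1 and 11 was not tested.

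**Figure D4:**
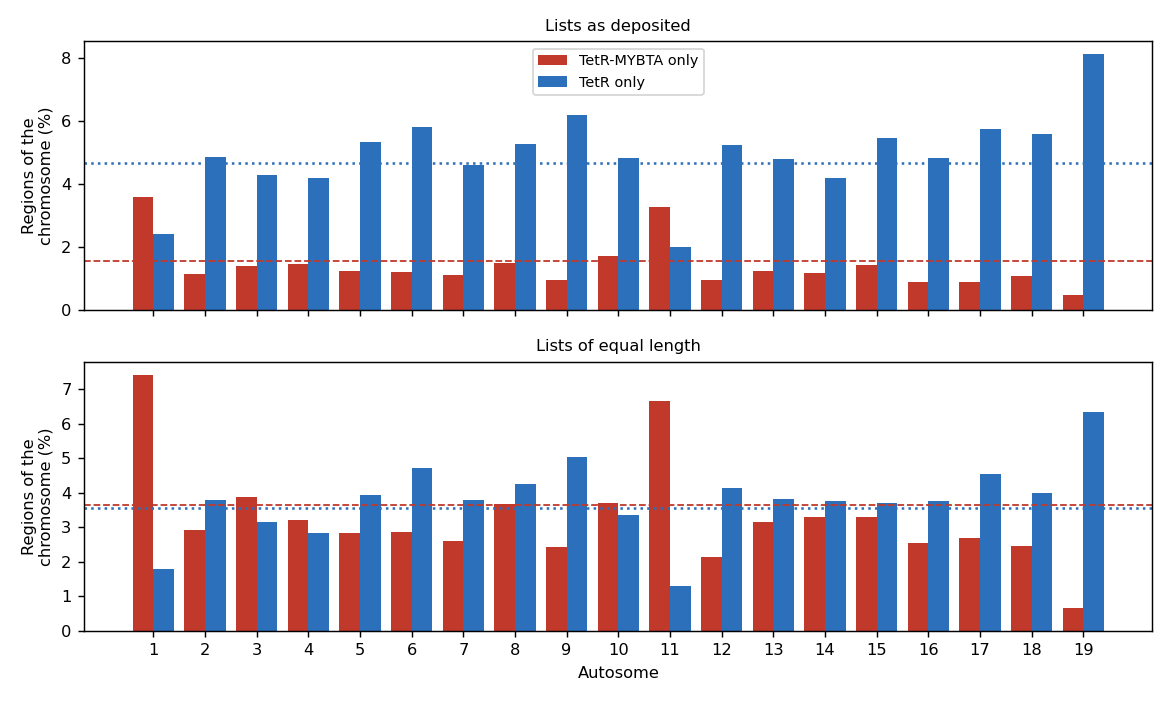
Percent of each autosome's regions called as TetR-MYBTA only or TetR only, with lists as deposited (top) and of equal length (bottom). Dashed and dotted lines give the shares over all autosomes, 1.56% and 4.67% above and 3.64% and 3.56% below. Chromosomes 1 and 11 have the tallest TetR-MYBTA bars and chromosome 19 the tallest TetR bar in both panels.

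Genes with a called region inside them or within 10 kb numbered 653 for TetR-MYBTA only, 3.75% of the 17396 genes with any region, and 3214 for TetR only, 18.5%. Both sets leaned to long genes, with a median length of 72.8 kb and 44.9 kb against 21.5 kb for all genes with a region, and 192 genes were in both. The genes with most regions of TetR-MYBTA only were Brinp3 (a neural protein), Cntnap5a (a neurexin family protein) and Dpp10 (a potassium channel partner), all on chromosome 1, with 4 each out of 44, 32 and 49 regions. In all, 13 genes had 3 or more, and the list of 10 broke ties by fewer calls in the other direction and then by shorter length. With 3 each, it went on with Gm4788 (of 9 regions), Osbp2 (an oxysterol-binding protein, of 13), Clnk (an immune adaptor, of 15) and Pam (a peptide-amidating enzyme, of 26). Then came, also with 3 each, Abca13 (a lipid transporter, of 22), Galntl6 (a glycosyltransferase, of 32) and Rap1gap2 (a RAP1 inhibitor, of 31, with 1 of TetR only). Brinp3, Cntnap5a, Dpp10, Gm4788 and Pam lie in the stretch of chromosome 1 described above, and Osbp2 and Abca13 in that of chromosome 11. In these stretches 4.59% and 5.14% of all regions were of TetR-MYBTA only, against 1.28% outside them, so much of this list restates the stretches. The genes with most regions of TetR only were Ptprn2 (a phosphatase-like protein of secretory granules) with 9 of 39, Foxp1 (a forkhead repressor) with 8 of 34 and Auts2 (a Polycomb-associated regulator) with 8 of 49. Tenm3 (a teneurin) had 7 of 66, and Cdh13 (T-cadherin) had 7 of 27 and also 2 of TetR-MYBTA only. Plekha7 (a junction protein) had 6 of 36, Zbtb7c (a zinc finger protein) 6 of 27 and Nav2 (a neuron navigator) 6 of 37, with 1 of TetR-MYBTA only in Nav2. Plpp3 (a lipid phosphatase) had 5 of 17 and Ago2 5 of 12. Ago2 encodes the core protein of microRNA silencing and spans 83.3 kb.

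Gene classes were then followed through 27 lists, counting regions within 50 kb of their genes. The 3 classes in which TetR-MYBTA calls outnumbered TetR calls were olfactory receptors (23 and 17 of 1136 regions), vomeronasal receptors (14 and 6 of 467) and the gene families that mark two-cell-like cells (4 and 1 of 128). Their shares of TetR-MYBTA only ran from 2.02% to 3.125%, above the 1.56% over all regions. Their shares of TetR only were all below the 4.67% over all regions. The two-cell-like class rests on few regions. Olfactory and vomeronasal receptors are large families of sensory receptors that lie in gene clusters and are silent outside the nose. At equal list length vomeronasal regions were called 31 times for TetR-MYBTA only (9.12%) and 3 times for TetR only (0.882%), beside 3.64% and 3.56% over all regions. Olfactory regions were called 46 times (5.61%) and 15 times (1.83%), and regions of cadherins and protocadherins, the calcium-dependent adhesion proteins, 25 times (6.46%) and 12 times (3.10%). As deposited, cadherin and protocadherin regions had more TetR calls, with 15 and 25 of 560 (2.68% and 4.46%). Within 10 kb, as deposited, 2 of 98 vomeronasal genes (2.04%) had a region of TetR-MYBTA only, Vmn2r24 and Vmn2r91. Of these 98 genes, 0 had one of TetR only. For olfactory genes the numbers were 16 (3.64%) and 4 (0.909%) of 440, and some neighbouring genes shared a region. Over all genes with a region the shares were 3.75% and 18.5%. Counted by gene, both receptor families were thus not above the general share for TetR-MYBTA only, and were low for TetR only. Two-cell-like families were also not above the general share of 3.75% for TetR-MYBTA only, and rest on 1 gene. Of their 28 genes, 1 (3.57%), Tdpoz4, had a region of TetR-MYBTA only and 0 had one of TetR only. Of 88 cadherin and protocadherin genes, 9 (10.2%) and 30 (34.1%) did, both above the general shares, and clustered protocadherins shared regions.

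The lists with the largest surplus of TetR calls as deposited were Hox clusters, imprinted genes, WNT pathway genes, other homeobox genes and trophoblast genes. WNT pathway genes had 4 regions of TetR-MYBTA only and 33 of TetR only among 497 (0.805% and 6.64%), and at equal length 2 and 24 among 346 (0.578% and 6.94%). The WNT ligands Wnt3, Wnt5a, Wnt5b and Wnt16, the receptors Fzd3 and Lrp6 and the kinase gene Gsk3b had regions of TetR only within 10 kb. So did the inhibitors Axin2 and Dkk3 and the TCF factors Tcf7l1 and Tcf7l2. These are 11 of 53 WNT pathway genes with a region (20.8%), close to the 18.5% over all genes. Tcf7l1, the TCF repressor that counters pluripotency genes in stem cells, had 5, all inside the gene. The highest of them, chr6:72770179-72770381, stood at percentile 80.5, 73.8 and 71.6 in TetR and had a peak in 2 WT libraries. The others had a peak in at most 1 WT library. Tcf7l1 lies in the stretch of chromosome 6 named above, where 15.1% of all regions were of TetR only. Gsk3b had 3 regions of TetR only and 1 of TetR-MYBTA only, and the remaining gene of the latter direction was Dkk2, a secreted WNT modulator.

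Hox clusters, whose genes pattern the body axis, are under Polycomb repression in stem cells. They had 6 regions of TetR only (8%) and none of TetR-MYBTA only among 75, against 4.67% and 1.56% over all regions. At equal length they had 2 of TetR only among 46 (4.35%), near the 3.56% over all regions. The regions were few but some were near several genes. So 13 of 38 Hox genes (34.2%) had one within 10 kb, against 18.5% over all genes with a region. A region 1.11 kb from Hoxa9, at chr6:52221741-52221982, was at percentile 52.0, 65.9 and 50.3 in TetR and in all 3 WT libraries, and it also counted for Hoxa3, Hoxa7 and Hoxa10. Homeobox genes outside these clusters had 7 and 54 of 828 (0.845% and 6.52%). Examples are Emx2, a forebrain factor gene, with a region at percentile 77.5 to 84.9 in the TetR libraries and in all 3 WT libraries, and Zfhx3, with 5 regions of TetR only of which the highest stood at 78.2, 79.4 and 77.7 and was absent from WT.

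Genes of the TGF-beta, BMP and Nodal pathways had 4 and 31 of 566 (0.707% and 5.48%). The ligand genes Bmp2, Bmp3, Bmp4, Bmp6, Gdf1, Gdf7 and Nodal, the antagonist gene Grem1, the receptor genes Acvr1, Acvr1b, Bmpr1a and Tgfbr3, the gene Tgfbr3l, and Smad1 and Smad7 had regions of TetR only. The Bmp2 region stood at 77.4, 84.7 and 66.4 and the higher Smad1 region at 69.9, 58.2 and 59.1 in TetR, and both were absent from WT. Acvr1 and Tgfbr3 also held regions of TetR-MYBTA only, as did Bmpr1b, so single genes of this class carried calls in both directions. Imprinted genes had 2 and 17 of 209 (0.957% and 8.13%), with Trappc9 (3 regions) and Usp29 (2) holding the most and Plagl1, a growth-regulating zinc finger gene, the single one in the opposite direction. At equal length imprinted genes had 9 and 9 of 162 (5.56% each), against 3.64% and 3.56% over all regions. The lean to TetR was thus not present there, though both shares were above the general ones.

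Trophoblast genes, markers of the placental lineage, had 3 and 11 of 152, and at equal length 1 and 9 of 117 (0.855% and 7.69%). Besides the Gata3 region, Eomes, a T-box gene, had one 6.57 kb away at percentile 77.2, 62.8 and 49.9 in TetR and absent from WT. Tfap2c, Fgfr2 and Tead4 had further regions, and Tead4 also had 1 of TetR-MYBTA only. Naive and core pluripotency genes had 4 and 17 of 390 regions (1.03% and 4.36%), below the 1.56% and 4.67% over all regions. At equal length they had 5 and 15 of 317 (1.58% and 4.73%), against 3.64% and 3.56% over all regions. In the direction of TetR-MYBTA only, Rif1, the gene of a telomere and replication timing factor, had a region at its gene end at percentile 86.0, 83.1 and 79.2, with a TetR peak within 1 kb and a peak in 1 WT library. Besides Nanog and Pou5f1, the genes with a region of TetR only within 10 kb were Tet2 and Sall4. Tet2, a DNA demethylation enzyme gene, had 1 at percentile 91.5, 88.7 and 86.6 in TetR and in all 3 WT libraries, though with a TetR-MYBTA peak within 1 kb.

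Genes tied to MYB were followed in 3 lists. The list of blood progenitor and MYB-associated genes had 4 and 19 of 415 regions (0.964% and 4.58%), near the shares over all regions as deposited, and 10 and 11 of 307 (3.26% and 3.58%) at equal length. Il9r, Ikzf1 and Bcl2 had regions of TetR-MYBTA only within 10 kb. The region inside Bcl2, the survival gene that MYB is known to activate in blood cells, stood at percentile 58.6, 60.8 and 56.8 in TetR-MYBTA and in 1 WT library. That inside Ikzf1, a lymphoid factor gene, stood at 44.3, 62.7 and 31.3 and was in 2 WT libraries. All 3 of these genes lie in the stretches of chromosomes 1 and 11 named above. Without those stretches the list held 1 region of TetR-MYBTA only among 322 (0.311%). Spi1, Bcl11a, Etv6, Flt3, Kit, Runx1 and Erg had regions of TetR only. Among genes of MYB coactivators and cofactors Kat2b, a histone acetyltransferase gene, had 3 regions of TetR only and Taf9 had 1, and none had one of TetR-MYBTA only. Within 50 kb the cofactor list had 1 and 7 of 226 regions (0.442% and 3.10%), both below the shares over all regions. Its share of each library's peaks was lower in every TetR-MYBTA library than in any TetR library, with means of 0.218% and 0.246% (exact permutation p = 0.1, adjusted p = 0.159). The mitotic genes of the MYBL2 class, a MYB relative that is active in dividing cells, had 2 and 14 of 287 (0.697% and 4.88%), with Cdk1 and Cenpf holding 2 of TetR only each.

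**Figure D5:**
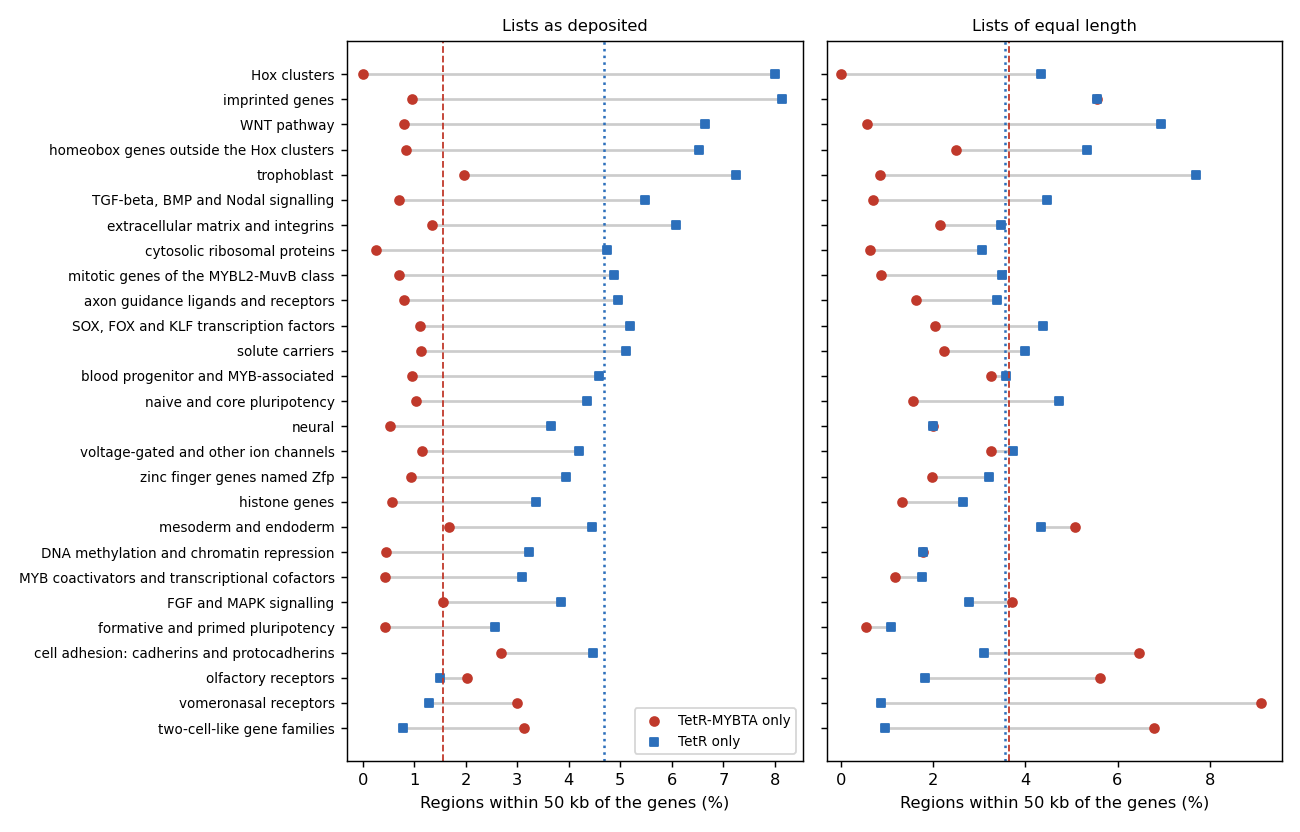
Percent of the regions within 50 kb of each list's genes that were called as TetR-MYBTA only (circles) or TetR only (squares), as deposited (left) and at equal list length (right). Dashed and dotted lines give the shares over all autosomal regions. At equal length vomeronasal receptors reach 9.12% for TetR-MYBTA only and trophoblast genes 7.69% for TetR only.

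Each library's own peaks near the lists were counted as well. Vomeronasal receptors had 0.533%, 0.563% and 0.565% of the peaks in TetR-MYBTA and 0.427%, 0.390% and 0.395% in TetR. Hox clusters had 0.0311%, 0.0362% and 0.0319% in TetR-MYBTA and 0.0783%, 0.0693% and 0.0531% in TetR, with WT at 0.0817%, 0.0750% and 0.0673%. WNT pathway genes had 0.437%, 0.420% and 0.424%, and 0.517%, 0.538% and 0.495%. In each of these the libraries of the 2 lines did not overlap. For imprinted genes, which had a surplus of TetR calls as deposited, they did, with means of 0.210% and 0.221% (exact permutation p = 0.3, adjusted p = 0.368). Of the 27 lists, 4 (14.8%) had every TetR-MYBTA library above every TetR library: cadherins and protocadherins, olfactory receptors, vomeronasal receptors and two-cell-like families. In 13 (48.1%) every TetR-MYBTA library was below: trophoblast, neural, MYB coactivators, Hox clusters, solute carriers, ion channels, axon guidance, WNT, TGF-beta, other homeobox genes, SOX, FOX and KLF factors, ribosomal proteins, and extracellular matrix, the last of which turned the other way in the upper 50% of the lists. Each had p = 0.1 by exact permutation, the smallest possible (adjusted p = 0.159 over 27 lists), so none passed a threshold of 0.05. Lists share some genes, and without the stretches of chromosomes 1 and 11 the numbers were 4 above and 9 below.

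Among the 27516 regions open in all 6 libraries, the place was compared as well, ranking each library's peaks within these regions alone, so that list length enters only through which regions are included. All 3 TetR-MYBTA libraries stood above all 3 TetR libraries at 5283 regions (19.2%) and below them at 5382 (19.6%), and at equal list length at 4352 and 4437. In the 2 stretches of chromosomes 1 and 11 the shares were 55.9% and 3.67%. Near vomeronasal receptors 48 of 154 regions (31.2%) stood above and 5 (3.25%) below. Near neural genes 2 and 21 of 59 did (3.39% and 35.6%), and near trophoblast genes 0 and 12 of 38 (0% and 31.6%). These 3 lists are examples picked after the values were seen. Single regions differed by most of the list. One inside Robo1, an axon guidance receptor gene, stood at 93.9, 94.6 and 92.4 in TetR-MYBTA and 3.27, 13.8 and 7.76 in TetR. Another inside Rftn1, a lipid raft protein gene, stood at 3.06, 11.3 and 3.81 in TetR-MYBTA and 84.3, 78.6 and 85.6 in TetR. Both were open in all 3 WT libraries, and both were picked after their values were seen, as the largest differences in each direction. Such regions are not among the called ones, since each library had a peak there.

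Marker genes of other cell types were checked for a peak within 1 kb of a gene end. Of 8 embryonic stem cell markers, 2, 3 and 2 had one in the TetR-MYBTA libraries, 4, 3 and 4 in TetR and 2, 2 and 4 in WT. Of 8 markers of blood progenitors 5 had one in every one of the 9 libraries, and of 9 fibroblast markers 3 to 6 did. Gene-end peaks therefore do not tell the labelled cell type from others in these lists, while the outer regions at Nanog and Pou5f1 and the Sox2 start were open in all libraries. Markers of trophoblast had a peak at 4, 3 and 2 of 5 genes in TetR-MYBTA and 4 of 5 in each TetR library, markers of primitive endoderm at 0, 1 and 0 of 5 and 2, 2 and 1 of 5, and neural markers at 3, 3 and 2 of 4 and all 4 of 4. In WT the numbers were 4, 5 and 4 for trophoblast, 0, 1 and 1 for primitive endoderm and 4, 2 and 3 for neural markers. The part of other cell types in the called regions was not tested.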

How the data were processed

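ATAC-seq of 3 TetR-MYBTA and 3 TetR libraries was compared, with 3 WT libraries as a reference, grouped by their titles. DNA was tagged with Tn5 in lysed cells, per the labels' protocols. HOMER 4.11, deepTools 3.5.5, Picard, Bowtie2, Trim Galore 0.6.10 and FastQC are the tools, and mm10 the build, in the submitters' processing notes. Peaks were called in each library with no control, per the file headers, with an FDR limit of 0.001, 4 times the tags of the local 10 kb, a local Poisson p of 0.0001 and at most 1 tag per position. The score the authors deposited is 1 in every row, so the starts and ends of the deposited peaks and their row order were used. Row order followed the caller's peak number. A shift of reads for the Tn5 offset is not stated in the sources at hand. Tags per peak were not used, so the depth behind a single peak is unknown and no interval is given.

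Peaks overlapping by 1 bp were merged, on autosomes. Genes, 20665 protein-coding, came from RefSeq GRCm38.p6, whose table gives no exons or introns, so positions are given as gene end, inside or between genes. A listed gene family matched by name start left out kinases and binding partners of the same prefix. Differences of library means were tested by two-sided exact permutation over 20 splits, with Benjamini-Hochberg adjustment within each family of measures. In simulated presence data of 102267 regions, 200 of 200 planted regions were recovered by the calling rule, which checks the counting only. Members, gene lists and tests were chosen with earlier results of these data known. Named were the 12 highest-placed called regions per direction with no peak of the other line within 1 kb, called promoters, the 10 genes with most called regions, listed genes with a called region within 10 kb, and, whatever their values, Esrrb, Klf4, Myb, Nanog, Pou5f1 and Sox2. Of the 4 highest-placed promoters per direction, Nanog is printed as the one with no neighbouring peak of the other line, and Cpsf2 as an example of one called in both directions. Software was scipy 1.17.1, pandas 2.3.3, numpy 2.4.6 and matplotlib 3.10.9 under Python 3.11.15.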

Additional observations from a re-analysis of the deposited data

How the results depend on the processing

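Counts of called regions moved with list length and stringency. Regions of TetR-MYBTA only numbered 2710 at equal list length, 2775 with the lists cut over all chromosomes, 2523 at equal length with no TetR peak within 1 kb (a setting chosen after seeing the data), and 5014 with presence in at least 2 of 3. Regions of TetR only numbered 2646, 2584, 2257 and 11468 in the same order, and 2841 in the upper 50% of each list. Leaving out 1 library in turn gave 1945 to 3642, highest without TetR-MYBTA replicate 3, and 5465 to 8125, highest without TetR replicate 3. Called promoters of TetR-MYBTA only were 47 at equal length, 80 with gene ends within 1 kb, 14 with no TetR peak within 1 kb (also chosen after seeing the data), and 53 to 72 with any 1 of the 6 libraries left out. Those of TetR only were 521 with gene ends within 1 kb and 253 to 349 with 1 library left out, highest without TetR-MYBTA replicate 1 or 2 or TetR replicate 3 (349, 300 and 310). In the upper 50% of each list, regions in all 6 with TetR-MYBTA all above or all below numbered 2871 and 2853.

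The gene-end difference (TetR-MYBTA minus TetR) changed sign to -2.14 points at equal length, -0.0423 in the upper 50% and, over the libraries left out in turn, ranged from -0.448 without TetR-MYBTA replicate 3 to 1.403. Sign also changed for differences whose main ranges overlapped. At equal length these were chromosome 4 (0.0805), chromosome 10 (-0.0395), chromosome 14 (-0.0676) and histone genes (-0.0144). In the upper 50% they were chromosomes 13 (0.000138) and 14 (-0.0972), naive pluripotency (0.00238), blood progenitor (0.00177) and imprinted genes (0.0219), and one list whose ranges had not overlapped, extracellular matrix (0.0161). Without the chromosome 1 and 11 stretches they were mesoderm and endoderm (0.00292) and Zfp genes (0.0582). With 1 library left out they were chromosome 13 (range -0.0687 to 0.00120), chromosome 14 (-0.0295 to 0.0543), formative pluripotency (-0.0184 to 0.00200), histone genes (-0.00303 to 0.0134) and Zfp genes (-0.0915 to 0.0115). The cause was not tested.

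Deviations of same-numbered libraries of the 2 lines had correlations of -0.0809, 0.102 and 0.281, within the range over all pairs, -0.483 to 0.496. With 3 libraries per line these values cannot tell whether same-numbered libraries were prepared together. With the replicate block the smallest p is 0.25, reached by the share inside genes (-4.96 points), between genes (4.22) and over 100 kb from genes (3.81) and by peaks per library, and 0.5 by gene ends.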
